A study of Rattus norvegicus with 13 samples.

Results

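Heat shock proteins of the cytosol and of the mitochondrion were measured in the thyroid of young male Wistar rats. The 10 genes were taken by their symbol on the array: Hspa1b, Dnajb1, Hsph1, Hspb1 and Hsp90aa1 as chaperones whose transcription is induced by stress, Hspa8 and Hsp90ab1 as constitutive chaperones, and Hspa9, Hspd1 and Hspe1 as mitochondrial chaperones. They are 10 of 36174 gene names on the array and have 20 of its 45598 probes, and every probe was kept.

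Chaperones of these families bind proteins that are not yet folded or have lost their fold, and release them through cycles of ATP hydrolysis. When unfolded proteins accumulate, heat shock factor 1 is set free from chaperones and binds heat shock elements, which are inverted repeats of the letters GAA, in the promoters of the inducible members. The follicular cell of the thyroid makes large amounts of secreted thyroglobulin, whose folding is mainly the work of the chaperones of the endoplasmic reticulum, while the chaperones described here serve the cytosol and the mitochondrial matrix.

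The animals were the progeny of dams that had received potassium iodide (KI, 1 mg/kg/day) or saline. The dams were gavaged daily over 8 days starting on gestational day 9, and the thyroids were collected 30 days after weaning. Each of 13 one-colour arrays held labelled RNA from 1 thyroid, 6 of KI-treated progeny and 7 of control progeny. The litters are not given in the sources used here, so that animals of one group may share a dam and the p-values measure only the spread between these samples. The pups themselves were not dosed, so the groups are a model of exposure before birth through the dam.

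On each array 34840 to 41050 of 58717 gene spots were well above background and none was saturated, and the thyroid was recognisable by its own genes. All 7 follicular markers were well above background on all 13 arrays, thyroglobulin (Tg) at log2 values of 9.80 to 10.58. Parathyroid hormone (Pth), calcitonin (Calca) and skeletal muscle genes were also well above background, so the RNA came from a mixture of cells, in which fewer cells of a type and less RNA per cell cannot be told apart. The arrays were scanned in 3 sessions, each holding both groups, and differences within sessions are given below in the order of the sessions. Session 1 held only KI 2 and control 4 (slide 1) and KI 3 and control 6 (slide 2), named by group and replicate number. A difference within session 1 thus sets only these animals against each other. Leaving out control 4 and control 6 removes every control of that session, so the session, slide and leave-out alternatives are not independent. This leave-out was chosen after the data were seen, so a p-value without these animals is a description only. Session 2 held KI 1, KI 5 and KI 6 with control 1 and control 2. In session 3, KI 4 was the only KI animal, beside control 3, control 5 and control 7, so a difference within session 3 rests on KI 4 alone. Every value below is the log2 of the processed signal with the 75th percentile of that array subtracted, so that a difference of 1 is 2-fold, and values of different probes cannot be ranked against each other. A probe was tested where it was well above background on at least 6 arrays, which held for 25717 probes. No probe differed between KI and control in limma after Benjamini-Hochberg adjustment over these probes (0% called, lowest adjusted p = 0.257), and 3271 (12.7%) had an unadjusted p under 0.05.

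The promoters of the members were searched for GAA units, and some are printed. Whether they bear on how the members moved together was not tested. RefSeq's table (build GRCr8) held the 250 bases before and 50 after the start of 8 of the 10 genes, and Hspa1b and Hsp90aa1 were not among them. A pair of GAA units, GAANNTTC or TTCNNGAA (each its own reverse complement, overlaps allowed), was found in 7 of the 8 windows and in 15.9% of all 33469 promoters. A run of 3 units in alternating direction, each separated from the next by 2 bases, was found in 4 of the 8, those of Hspa8, Hspd1, Hspe1 and Hsph1, and in 0.798% of all promoters. These are matches of letters and not measured binding sites. Hspd1 and Hspe1, whose products form the Hsp60 barrel and its Hsp10 lid, lie head to head, and their windows share 211 bases (chr9:64084077-64084287). The Hspe1 window (chr9:64084077-64084376, + strand) is shown whole, with every pair in capitals, and of Hspa8 (chr8:50080271-50080343, +), Hsph1 (chr12:10427302-10427374, +) and Dnajb1 (chr19:41431115-41431182, -) the stretch around the first longest match is shown, 5′ to 3′. In Hspe1 the run of capitals lies at positions -65 to -48 from its annotated start, and the same letters, read on the other strand, lie at -242 to -225 from that of Hspd1.
Hspe1: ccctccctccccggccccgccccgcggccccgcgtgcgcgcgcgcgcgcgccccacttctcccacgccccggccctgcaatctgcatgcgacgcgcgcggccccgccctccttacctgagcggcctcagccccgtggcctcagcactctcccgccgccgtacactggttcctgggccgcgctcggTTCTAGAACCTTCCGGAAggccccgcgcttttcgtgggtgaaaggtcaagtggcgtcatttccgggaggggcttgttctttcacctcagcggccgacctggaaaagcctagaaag
Hspa8: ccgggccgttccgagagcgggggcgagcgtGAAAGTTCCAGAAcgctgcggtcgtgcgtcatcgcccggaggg
Hsph1: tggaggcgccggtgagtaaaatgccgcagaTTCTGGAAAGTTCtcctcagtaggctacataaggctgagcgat
Dnajb1: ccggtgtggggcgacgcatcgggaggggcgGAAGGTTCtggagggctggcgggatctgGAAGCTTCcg

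Of the inducible chaperones, none passed the test between KI and control. The probe of Hspa1b, a stress-induced Hsp70, was not well above background on any of the 13 arrays (rn4, chr20:3959493-3959552). The accession the array gives for this probe was not matched in RefSeq's table, which also lists Hspa1b as a synonym of Hspa1a, so the name is the array's and which of these genes the probe measures is uncertain. Its values of -7.02 to -5.59 lay below the lowest signal of any probe that was well above background on an array (-5.31 to -3.93), so it gives a bound only and was not tested. Hspa1a, the neighbouring and nearly identical Hsp70 gene, was named after its values were seen. Its brightest probe was well above background on all 13 arrays, with 1.126 ± 0.537 in KI (SD, n = 6) and 1.004 ± 0.513 in control (SD, n = 7), an adjusted p of 0.809 in limma. RNA of such near copies can bind the same probe, so that the assignment to 1 of them is uncertain.

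Dnajb1, the Hsp40 partner that hands substrates to Hsp70, had the smallest spread of the inducible members (chr19:26214035-26214094, - strand, rn4 as for all probes). Its values ran from 1.63 (median 1.88) to 2.10 in KI and from 1.57 (median 1.81) to 2.25 in control. The groups overlapped over nearly their whole range, and the log2 fold change of KI over control was 0.00 (standard error 0.13, adjusted p = 0.996 in limma). Hsph1, the Hsp110 that exchanges the nucleotide of Hsp70, varied most (chr12:5809732-5809791, +). It ran from -1.92 (median -0.79) to -0.17 in KI and from -1.84 (median -1.01) to -0.12 in control. KI 4, control 4 and control 1 were the lowest animals and control 2 and KI 6 the highest, so that both groups held both ends (log2 fold change 0.10, standard error 0.31, adjusted p = 0.870 in limma). Within the scan sessions the Hsph1 difference was 0.42, 0.36 and -1.08, the last resting on KI 4 as the only KI animal of its session.

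Hspb1, a small heat shock protein that holds unfolded proteins without ATP (chr12:21911494-21911664, -), had values of 3.69 to 4.53 in KI (median 4.19) and 3.85 to 4.51 in control (median 4.05). Although 5 of 6 KI animals lay above the control median, the difference of 0.07 (standard error 0.15, adjusted p = 0.813 in limma) was smaller than the spread of either group. It was 0.18 after quantile normalization and 0.19 in the deposited values. Hsp90aa1, the inducible Hsp90, was measured by 3 probes. The brightest (chr6:135417971-135418030, -) ran from 5.01 (median 5.56) to 6.07 in KI and from 5.32 (median 5.79) to 5.89 in control. KI 2 and KI 3 were the lowest of all animals and KI 4 the highest, and the log2 fold change was -0.16 (standard error 0.18, adjusted p = 0.635 in limma). Within the scan sessions it was -0.64, 0.03 and 0.37, and it was -0.01 after quantile normalization. A probe nearer the 3′ end gave -0.12, and -0.01 came from a probe that lies on the opposite strand.

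**Figure D1:**
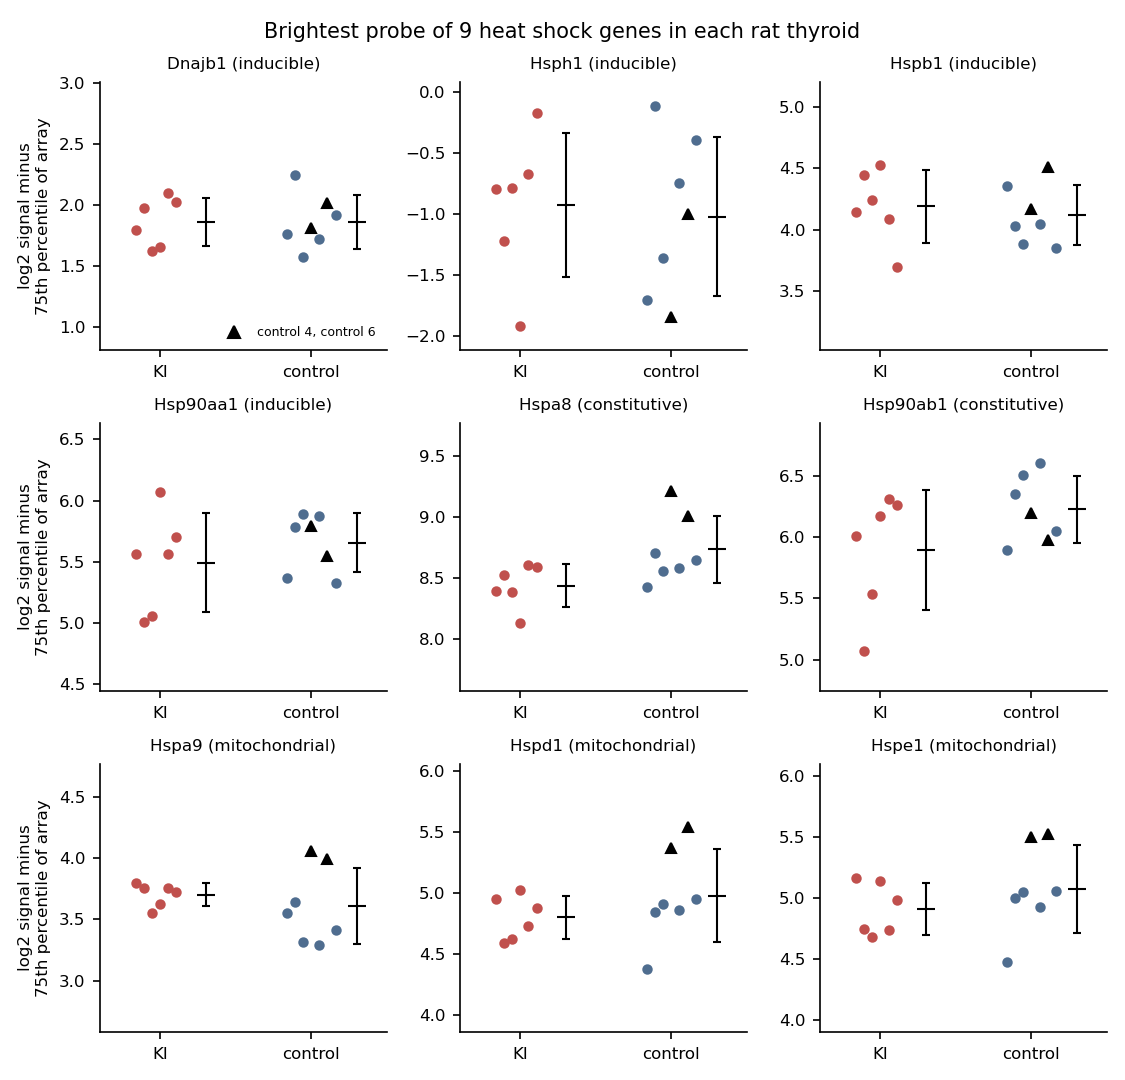
Each panel shows the brightest probe of 1 heat shock gene: points are animals (6 KI, 7 control), the y axis is log2 signal minus the 75th percentile of the array, every panel spans the same range, and the bar beside each group is its mean with SD. Black triangles are control 4 and control 6, which were the highest of all animals for Hspa8, Hspa9, Hspd1 and Hspe1.

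Both constitutive chaperones were below control in KI by their brightest probe, by a size that depended on the scaling, and neither passed the adjusted threshold. Hspa8 is the Hsp70 that cells make without stress and use for new chains and for uncoating clathrin vesicles. Its brightest probe (chr8:43787677-43787736, +) ran from 8.13 (median 8.46) to 8.61 in KI and from 8.43 (median 8.65) to 9.22 in control. All 6 KI animals lay below the control median, but 3 of the 7 control animals lay within the KI range. The log2 fold change was -0.295 (standard error 0.139), with an adjusted p of 0.395 in limma and an exact two-sided permutation p of 0.0402. It was -0.04 after quantile normalization, -0.03 after normexp background correction with quantile normalization and -0.07 in the deposited values. With array weights it was -0.16, and as the mean of the Hspa8 probes -0.11. Within the scan sessions it was -0.65, -0.04 and -0.47. A second probe that shares 40 bases with it gave -0.29, and it was the 1 member probe of 19 with an unadjusted limma p under 0.05 (5.26% of the member probes, against 12.7% of all probes tested in either direction, 5.71% higher and 7.01% lower). Another, which shares 27 bases with a probe of a different transcript, gave -0.16. The 2 highest values belonged to control 4 (9.22) and control 6 (9.01), and without these animals the difference was -0.145 (exact permutation p = 0.145).

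The fourth Hspa8 probe, near the 5′ end, went the other way. It had 2.76 to 3.30 in KI and 1.61 to 3.46 in control, so KI exceeded control by 0.32 ± 0.27 (standard error; adjusted p = 0.545 in limma). Control 4 (1.61) and control 6 (2.11) were here the lowest of all animals, and the difference was -0.02 without them.

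Hsp90ab1, the constitutive Hsp90, ran from 5.07 (median 6.09) to 6.31 in KI and from 5.90 (median 6.20) to 6.61 in control for its brightest probe (chr9:11036014-11036073, +). The low KI values were those of KI 2 (5.07) and KI 3 (5.53), which had also been lowest for Hsp90aa1, and the other 4 KI animals lay within the control range. The log2 fold change was -0.33 (standard error 0.20, adjusted p = 0.454 in limma), and within the scan sessions it was -0.79, 0.07 and -0.22. It was -0.18 both after quantile normalization and with normexp added, -0.19 in the deposited values and -0.15 as the mean of its probes. A second probe, which shares a run of 38 bases with a probe of another transcript, gave 0.03.

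No mitochondrial chaperone passed the test over the 13 arrays, and by its brightest probe each was highest in the same pair of controls. Hspd1, the Hsp60 subunit (chr9:53884211-53884270, -), ran from 4.60 (median 4.81) to 5.02 in KI and from 4.38 (median 4.91) to 5.54 in control. Hspe1, the Hsp10 lid (chr9:53898351-53898410, +), ran from 4.68 (median 4.86) to 5.16 in KI and from 4.47 (median 5.05) to 5.53 in control. Control 1 was the lowest animal for both, and control 6 and control 4 the highest. The log2 fold changes were -0.18 for Hspd1 (standard error 0.17) and -0.17 for Hspe1 (standard error 0.17), with adjusted p of 0.585 and 0.604 in limma. Both were 0.01 without control 4 and control 6, and within the scan sessions they were -0.84, 0.24 and 0.12 for Hspd1 and -0.80, 0.23 and 0.13 for Hspe1. After quantile normalization they were -0.05 and -0.04, and in the deposited values -0.04 and -0.03. The second Hspe1 probe gave -0.17. The other Hspd1 probes gave 0.13 (5′ end) and 0.09, the latter sharing 47 bases with a probe of another transcript. Both of these probes were highest in KI 4, and the one at the 5′ end was lowest in control 4.

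Hspa9, the Hsp70 of the mitochondrial matrix, which pulls imported chains through the inner membrane (chr18:27418959-27419018, -), moved away from 0 when those animals were left out. It ran from 3.55 (median 3.74) to 3.80 in KI and from 3.29 (median 3.55) to 4.06 in control, and KI exceeded control by 0.09 ± 0.14 (standard error; adjusted p = 0.727 in limma). Control 4 (4.06) and control 6 (3.99) were above every KI animal, while the other 5 controls lay at 3.29 to 3.65, below 4 of the 6 KI animals. Without control 4 and control 6 the difference was 0.26 ± 0.09 (standard error; exact permutation p = 0.013). These animals were left out after the data were seen and held the highest values of this probe. Leaving them out lowers the control mean and its spread, so that p is no independent test. It did not pass after adjustment in limma (adjusted p = 0.452), where 9.38% of all probes had an unadjusted p under 0.05. The second Hspa9 probe, nearer the 5′ end, gave 0.23 over all arrays and 0.06 without them, so that leaving out these animals moved the probes of 1 gene in opposite directions. Within the scan sessions the brightest probe gave -0.37, 0.16 and 0.29. Over all arrays it gave 0.19 after quantile normalization, 0.20 with normexp added, 0.17 with the percentile over all gene spots and 0.22 in the deposited values. It gave 0.29 with array weights and 0.23 with the index described below as a covariate, and 0.01 with either slide or scan session as a block. Control 4 (0.168) and control 6 (0.252) had the lowest array weights and the highest index. The weights and the index are therefore not independent of leaving these animals out.

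**Figure D2:**
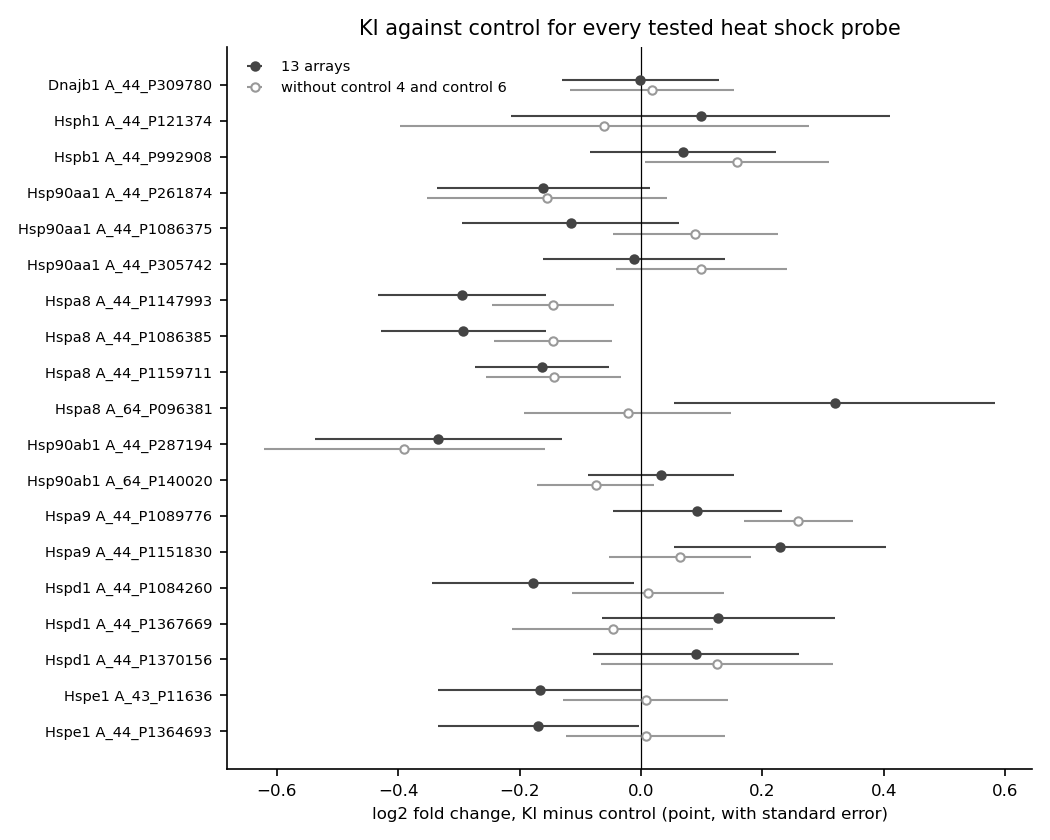
Log2 fold change (KI minus control, x axis) with its standard error for each of the 19 member probes tested, over 13 arrays (filled) and without control 4 and control 6 (open). The Hspa8 probe at the 5′ end moved from 0.32 to -0.02 and the brightest Hspa9 probe from 0.09 to 0.26.

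By class, the median log2 fold change was 0.03 for the 4 inducible genes tested (2 higher, 2 lower), -0.315 for the 2 constitutive genes (both lower) and -0.17 for the 3 mitochondrial genes (1 higher, 2 lower). The median over all probes tested was -0.08, with 10103 of the 25717 probes higher and 15614 lower. After quantile normalization the class medians were 0.08, -0.11 and -0.04, and without control 4 and control 6 they were -0.02, -0.27 and 0.01. Of the 9 genes tested, 3 were higher and 6 lower, or 4 and 5 with the percentile taken over all gene spots, where the median of all probes was 0.001. The median of the 9 genes, -0.16, became 0.01 without control 4 and control 6, where that of all probes was -0.01. The per-animal means of the classes, each gene centred on its own mean, overlapped between KI and control in each class. They ran from -0.12 to 0.16 in KI and -0.21 to 0.33 in control for the inducible genes, from -0.54 to 0.12 and -0.18 to 0.37 for the constitutive genes, and from -0.23 to 0.12 and -0.38 to 0.50 for the mitochondrial genes.

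For several members the opposite shifts of 2 probes went with the position of the probe in the transcript. An index was taken on each array over 2931 other genes as the median of the 3′ minus the 5′ probe, each gene centred on its own mean. The probes of these genes lay 300 to 500000 bases apart in the genome, introns included, which is not the distance in the transcript. The index was 0.45 in control 4, 0.31 in control 6 and 0.08 in control 7, and -0.13 to -0.03 on the other 10 arrays. In control 4, 74.8% of the genes lay above their own mean, and in control 6, 70.9%. The exact permutation test of the index (p = 0.278) compared group means only and cannot show that the groups were balanced. The highest values were all in controls, and the SD was 0.24 in control and 0.03 in KI. With the index as a covariate, the brightest Hspa8 probe gave -0.15 in place of -0.295, and Hspd1 -0.02 in place of -0.18. The differences of Hspe1 and Hsph1 also shrank in size, while those of Dnajb1, Hspb1, Hsp90aa1, Hsp90ab1 and Hspa9 grew. The median of all probes tested was -0.014 in place of -0.078. The quality of each RNA is not given in the sources used here.

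Of the 6 members with more than 1 usable probe, 4 had their highest 3′ minus 5′ values in control 4 and control 6. For Hspa8, the 3′ probe exceeded the 5′ probe by 7.04 in control 4 and 6.40 in control 6, and by 4.45 to 5.51 in the other 11 animals. For Hspd1 it did so by 5.50 and 5.13, and by 3.92 to 4.44 in the others. For Hspa9 the values were 3.29 and 2.39, and 1.46 to 2.05. For Hsp90aa1 the same pair of animals ranked first and second, with less distance (-0.29 in control 6 and -0.56 in control 4, against -1.41 to -0.60). Hsp90ab1 did not follow: control 4 ranked 13 and control 6 ranked 9 of 13, and KI 2 was the highest at 0.21. Hspe1, whose probes begin 45 bases apart, stayed within 0.00 to 0.10 on all arrays. The 3′ probe of Hspd1 and of Hspa9 is the brightest probe itself, and that of Hspa8 shares 40 bases with the brightest. For these genes the difference between the ends therefore contains the high values of control 4 and control 6 above, and is no separate measure of them. What part the position of the probe had in those values was not tested.

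The probes that stand at these ends are given by the first 30 of their 60 bases, 5′ to 3′, with their positions in rn4. For Hspa8 they lie at chr8:43787697-43787756 (3′) and chr8:43785470-43785529 (5′) on the + strand, and for Hspd1 at chr9:53884211-53884270 (3′) and chr9:53886764-53886823 (5′) on the - strand.
Hspa8 A_44_P1086385, 3′ probe: gcattgttccacagggacccaaaacaagta
Hspa8 A_64_P096381, 5′ probe: ttacttcaatgactctcagcgacaggcaac
Hspd1 A_44_P1084260, 3′ probe: gtgagaatgattgtgtacagagtagagaag
Hspd1 A_44_P1367669, 5′ probe: attcaagaaatcactgagcagctagacatc

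**Figure D3:**
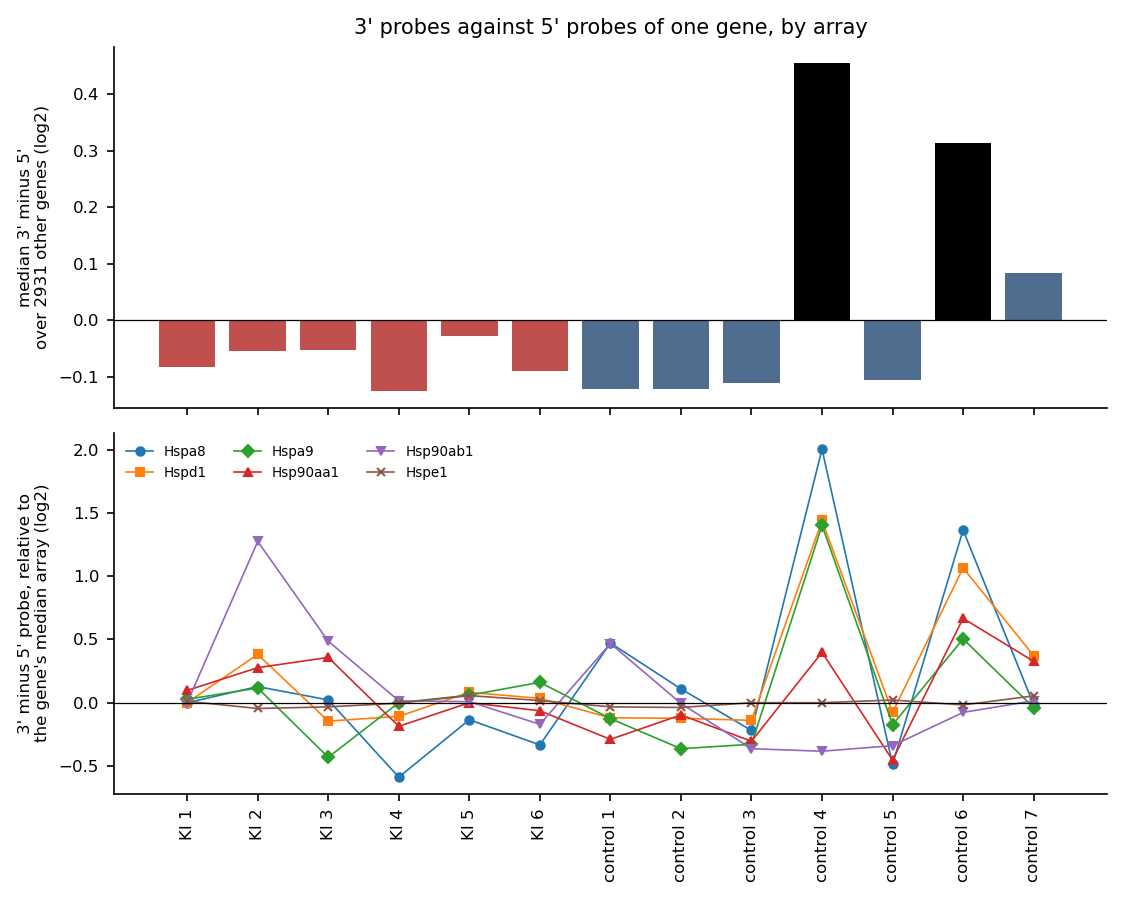
Top, the index of 3′ against 5′ probes (median over 2931 genes, log2) as a bar for each array, with control 4 and control 6 in black. Bottom, the 3′ minus 5′ probe difference of 6 members relative to each gene's median array (log2); Hspa8, Hspd1 and Hspa9 peak in control 4 and control 6, Hsp90ab1 in KI 2.

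The members differed in how far they spread between animals of the same group. The SD of Hsph1 around its group means was 0.62, above that of 89.1% of the probes tested (median of all 0.31). Hsp90ab1 (0.39, percentile 66.9) and Hsp90aa1 (0.32, percentile 53.8) lay in the middle, as did Hspd1 and Hspe1 (both 0.30). Hspb1 (0.27), Hspa8 and Hspa9 (both 0.24) and Dnajb1 (0.21, percentile 18.5) spread less. Without control 4 and control 6 Hspa9 fell to 0.12, at percentile 10.5, while Hsph1 stayed at 0.62. Hspa8 fell to 0.15 (percentile 20.1). The SD of Dnajb1 was then 0.23, that of Hsp90aa1 0.35 and that of Hsp90ab1 0.42, all little changed. Their percentiles rose to 47.2, 73.0 and 80.5 while the median SD of all probes fell from 0.31 to 0.24. Hspa9 took the place of Dnajb1 as the member with the smallest SD, so the order of the members by spread depends in part on these 2 arrays.

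Across animals, 2 of the 36 pairs of the 9 genes moved together past a threshold of 0.05 after adjustment over the pairs, with group means subtracted. Hspd1 and Hspe1 had Pearson's r = 0.98 (permutation p = 1e-05, the smallest that 100000 permutations can give, adjusted p = 0.00036) and Spearman's rho = 0.95 (permutation p = 5e-05, adjusted p = 0.0018). Without control 1 and control 6, the 2 animals farthest from the median of Hspd1, r was 0.97, and with scan session or slide means subtracted it was 0.98 and 0.99. Such a value was not particular to this pair. Of 20659 other genes 375 had an r above 0.9 with Hspd1 (126 without control 4 and control 6), Hspe1 ranked 2 among them, and the genes outside the members with the highest r were Snx32, Bola3, Me1, LOC288978 and Minos1 (0.97 to 0.98).

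Hsp90aa1 and Hsp90ab1 formed the other pair, with r = 0.85 (permutation p = 0.00127, adjusted p = 0.0229) and rho = 0.80 (permutation p = 0.00415, adjusted p = 0.0502). Without KI 2 and KI 3, the low animals, r was 0.76, and it was 0.81 and 0.79 with scan session and slide means subtracted. Of the 20659 genes, 32 had an r with Hsp90aa1 at least as high, and Hsp90ab1 ranked 33, or 134 without control 4 and control 6. The adjusted p of the pair rose past the threshold when 1 of 4 animals was left out: 0.0531 without KI 1, 0.0855 without KI 2, 0.0518 without KI 3 and 0.0619 without KI 6. Hspa8 and Hspa9 (r = 0.80, permutation p = 0.00599, adjusted p = 0.0719; rho = 0.78, permutation p = 0.00418, adjusted p = 0.0502) did not pass, and their r was 0.51 without control 4 and control 6, the 2 farthest animals, and 0.32 with the group means then recomputed. No pair of inducible genes passed the adjusted threshold. Dnajb1 and Hsph1 had r = 0.60 (permutation p = 0.0422, adjusted p = 0.304) and rho = 0.54 (permutation p = 0.0706), and r was 0.43 without the 2 farthest animals. Hsph1 and Hspb1 had r = -0.65 (permutation p = 0.0233, adjusted p = 0.210) and rho = -0.68 (permutation p = 0.017), and r was -0.61 without the 2 farthest animals.

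**Figure D4:**
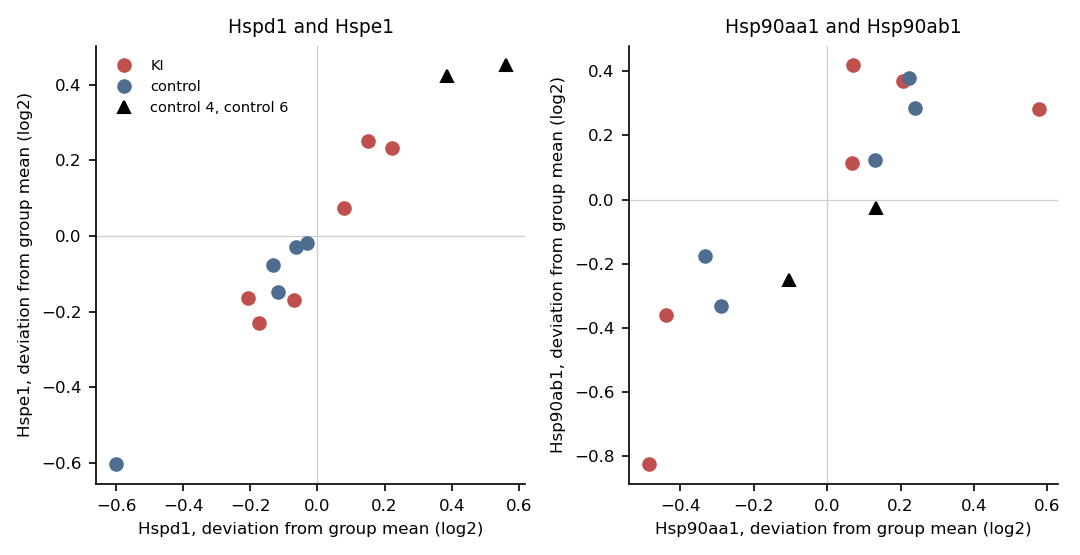
Each point is 1 animal, plotted by its deviation from the mean of its group (log2) for Hspd1 against Hspe1 (left, r = 0.98) and Hsp90aa1 against Hsp90ab1 (right, r = 0.85). Control 4 and control 6, drawn as triangles, are the 2 highest points on the left and lie inside the cloud on the right.

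The wider heat shock network was read from 8 lists with 67 genes, of which 63 were tested. None passed the adjusted threshold in limma (lowest adjusted p = 0.354). Of the 63, 31 were higher and 32 lower in KI (36 and 27 with the percentile over all gene spots), with a median log2 fold change of -0.01. Without control 4 and control 6 the split was 42 and 21 and the median 0.08, where that of all probes was -0.01. Over the 13 arrays 6 (9.52%) had an unadjusted p under 0.05, 5 higher and 1 lower, against 12.7% of all probes. Of all 25717 probes tested, 10103 were higher and 15614 lower over the 13 arrays, and the splits of the lists over these arrays are to be read beside that. For the leave-out and the percentile over all gene spots the split of all probes was not counted. The median of all probes was there nearer 0, at -0.01 and 0.001, so those list splits have no like split beside them.

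Other mitochondrial chaperones and proteases held the gene with the smallest exact p of the network. Lonp1, the matrix protease that degrades misfolded proteins, had 2.77 to 2.93 in KI and 2.09 to 2.77 in control. All 6 KI animals lay above the control median and 5 of them above every control (log2 fold change 0.33, standard error 0.115, adjusted p = 0.354 in limma, exact permutation p = 0.00291), and the difference was 0.21 without control 4 and control 6. Of the 10 genes tested, 5 were higher and 5 lower. Timm44, which tethers Hspa9 to the import channel, had the largest difference (0.64), but was well above background on only 6 arrays.

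The CCT chaperonin, which folds actin and tubulin, had 5 of 8 genes higher (median 0.10), and 3 of its genes, Cct2, Cct4 and Cct5, had an unadjusted p under 0.05, where 12.7% of all probes did in either direction and 5.71% higher. Cct2 ran from 1.91 to 2.09 in KI and from -0.60 to 2.02 in control, and Cct4 from 1.35 to 1.68 and from -0.54 to 1.47. Control 4 and control 6 were the lowest animals for both. The log2 fold changes of 0.79 (adjusted p = 0.386 in limma) and 0.78 (adjusted p = 0.368 in limma) were 0.28 and 0.33 without these animals, and that of Cct5 moved from 0.58 to 0.26. Without them 7 of the 8 genes were higher and 1 lower (median 0.15, that of all probes -0.01). The exact permutation p of Cct2, Cct4 and Cct5 was then 0.0216, 0.026 and 0.026, and the adjusted p in limma 0.474, 0.463 and 0.495. These p-values follow a choice of arrays made after the data were seen.

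The heat shock factors and their regulators had 1 gene higher and 2 lower (2 and 1 without control 4 and control 6). Hsf2, a second heat shock factor, was lower by -0.24 (adjusted p = 0.419 in limma) with all 6 KI animals below the control median. Control 6 and control 4 were its highest animals, and without them the difference was -0.10. Of the other inducible chaperones 6 were higher and 8 lower (9 and 5 without those animals). Among them Stip1, which links Hsp70 to Hsp90, had 0.80 (0.23 without control 4 and control 6), and Ubb, a ubiquitin gene, -0.295 (adjusted p = 0.403 in limma; -0.12 without them). Of the 12 co-chaperones 6 were higher and 6 lower (8 and 4 without them). They ran from -0.245 for Bag5, a nucleotide exchange factor of Hsp70, to 0.37 for St13, which stabilises the substrate-bound form of Hsp70, which became -0.12 and 0.10 without control 4 and control 6.

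Of the small heat shock proteins 1 was higher and 4 lower (2 and 3 without control 4 and control 6). The largest difference was -0.41 for Hspb3 (adjusted p = 0.539 in limma) and that with the smallest exact p -0.14 for Hspb2. Both are known from muscle, and the mean level of the 7 skeletal muscle markers ran from -1.82 to 2.23 in KI and from 0.88 to 4.13 in control, with control 5 the highest array and KI 4 the lowest. All 7 muscle markers were lower in KI (median -1.41), none past the adjusted threshold, and their part in the small heat shock values was not tested. ER chaperones had 1 gene higher, the ER Hsp90 Hsp90b1 (0.40, adjusted p = 0.451 in limma), and 3 lower, and without control 4 and control 6 the split was 3 higher and 1 lower. Of 7 immediate-early genes, which respond within minutes to handling and stress, 6 were higher and 1 lower (5 and 2 without control 4 and control 6). Atf3 had 0.41 (adjusted p = 0.406 in limma; 0.52 without those animals), and Ier2 was lower by -0.29 (adjusted p = 0.390 in limma; -0.14 without them).

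**Figure D5:**
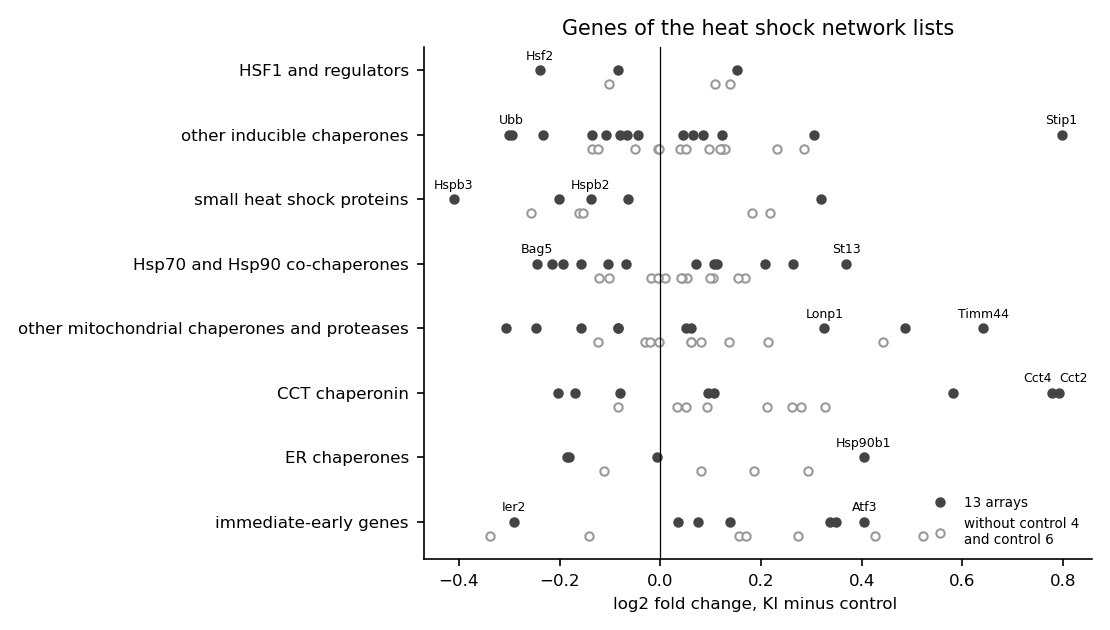
Each point is the log2 fold change (KI minus control, x axis) of 1 of 63 tested genes in 8 network lists (y axis), over 13 arrays (filled) and without control 4 and control 6 (open). Stip1, Cct2 and Cct4, at 0.78 to 0.80 on the right, moved to 0.23 to 0.33 when those arrays were left out.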

How the data were processed

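RNA of 13 thyroids was hybridised to one-colour Agilent rat arrays. The authors deposited the scanner output of each array, whose processed intensity is the spot's brightness after background subtraction and detrending by Agilent Feature Extraction 10.7.3.1, with no normalization between arrays. A deposited table, which holds log2 values for these arrays and whose normalization is not given in the sources used here, was used as an alternative. Gene spots that the scanner software flagged as outliers, 250 to 426 on an array, were left out. The other spots of one probe were averaged as log2 of the processed intensity, and the array's 75th percentile over 45598 probes was subtracted. The 25717 probes called well above background by the scanner software on 6 or more arrays were fitted with limma 3.58.1 in R 4.3.3, without covariates and with Benjamini-Hochberg adjustment. The fit was tested on simulated data. Exact two-sided permutation tests ran over all 1716 splits of 6 against 7, and without control 4 and control 6 over all splits of the remaining arrays. The brightest probe stands for its gene. Correlations used 100000 permutations within groups, and Hspa1b, not tested, left 36 pairs. For arrays, the number of animals limits the precision.

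The members and lists were chosen with earlier results of these data known. Named were all members, for each network list the gene with the smallest exact p and that with the largest difference, and the 5 genes most correlated with Hspd1. Likeness to Hspa1b could not be ranked because its probe was below background. Probe coordinates are those of the scanner files (rn4), and promoters are RefSeq's (GRCr8), 8 of 10 genes matched by symbol. Alternatives were other normalizations, background corrections and filters, slide and scan session, the replicate number as a block, array weights, and leaving out each array. After the data were seen, leaving out control 4 and control 6, the 3′ index as a covariate and a percentile over all spots were added.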

Additional observations from a re-analysis of the deposited data

Results flagged for a closer look

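Of 80 groups of values examined (40 measures in KI and in control), 3 held an animal far from the others by Dixon's test, and chance gives about 1 in 20. The 5′ probe of Hspa9 (A_44_P1151830) was lowest in control 4, at 0.77 against 1.57 to 2.12 in the other controls. The 3′ minus 5′ difference of Hspa9 was lowest in KI 3, at 1.46 (1.455) against 1.89 to 2.05 in the other KI animals. Lonp1 was lowest in KI 4, at 2.77 (2.766) against 2.87 to 2.93 in the other KI animals.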

How the results depend on the processing

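No member probe passed the adjusted threshold under any alternative (lowest adjusted p 0.164, with scan session as a block, and 0.166 with array weights), nor did any network gene. Over all probes 0 were called, 0 to 1 with 1 array left out (1 without control 1 or control 2) and 50 with array weights. Of these 50, 2 were higher and 48 lower, and control 4 and control 6 had the lowest weights. An unadjusted p under 0.05 was found for 3271 probes, 2364 to 4598 with 1 array left out and 5120 with scan session as a block. Of those 3271, 1469 were higher and 1802 lower. The split was 1823 and 1432 after quantile normalization, 1789 and 1109 with the percentile over all gene spots, 1886 and 1359 in the deposited values, 1885 and 1402 with normexp and quantile normalization, and 1166 and 3427 with normexp and the 75th percentile.

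The single member probe with an unadjusted p under 0.05 became 0 after quantile normalization, normexp with quantile normalization, the percentile over all gene spots, no filter, the replicate block and the mean of all probes, 2 with the filter on all arrays and with slide as a block, and 3 with scan session as a block (0 to 2 with 1 array left out: 2 without KI 5, control 1, control 3 or control 5, 1 without KI 6, 0 without any other). Class medians ranged with 1 array left out from -0.04 to 0.06 (inducible), -0.37 to -0.24 (constitutive) and -0.27 to -0.09 (mitochondrial). The constitutive median was -0.107, -0.105 and -0.129 under quantile, normexp with quantile and the deposited values and -0.129 as the mean of probes. The mitochondrial one was -0.043, -0.045 and -0.034 under the same scalings, -0.06 with array weights, -0.019 with the index, 0.011 without control 4 and control 6 and 0.013 as the mean of probes. The inducible one was -0.009 and -0.028 with slide and scan session as a block. The median SD of the members was 0.25 to 0.32. The count of 2 correlated pairs was 1 to 3 with 1 array left out, 4 with scan session means and 12 with slide means subtracted.

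Signs turned for these differences. Dnajb1, at -0.001, gave 0.071, 0.037, 0.081, 0.078 and 0.105 under quantile, normexp, normexp with quantile, the percentile over all gene spots and the deposited values, 0.007 with the replicate block, 0.093 with array weights, 0.019 with the index and 0.018 without control 4 and control 6. Without those controls Hsph1 gave -0.061, the 5′ Hspa8 probe -0.022 (-0.04 with array weights), Hspd1 0.011 and Hspe1 0.008. Hsph1 gave -0.007 with the index, Hsp90aa1 0.005 in the deposited values and Hspd1 0.013 as the mean of its probes. Within scan session 1 Hspa9 gave -0.37 and Hspb1 -0.001. Within session 2 Hspb1 gave -0.216, Hsp90aa1 0.034, Hsp90ab1 0.072, Hspd1 0.241 and Hspe1 0.226. Within session 3, where KI 4 was the only KI animal, Hsph1 gave -1.082, Hsp90aa1 0.371, the 5′ Hspa8 probe -0.089, Hspd1 0.116 and Hspe1 0.131. With 1 array left out, Dnajb1 ranged from -0.05 to 0.063 and Hsph1 from -0.053 to 0.296, below 0 without KI 6, control 1 or control 4.

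The replicate numbers did not pair the animals: same-numbered deviations correlated at -0.11 to 0.07, and 0 of 6 KI animals correlated best with its own number. The cause of none of these changes was tested.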
